A study of Mus musculus with 6 samples.

Results

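The 7 transcription regulators of striatal projection neurons, Foxp1, Meis2, Isl1, Ebf1, Eya1, Dlx1 and Dlx2, were followed in striatal RNA of Hdh4/Q80 and wild-type mice. They were taken as every probe set whose platform annotation gives 1 gene symbol and whose symbol is one of these names, with no measured value used in the choice. All 7 genes were measured, by 9 of the 10833 probe sets with 1 symbol, and they are 7 of 8251 genes on the array. Foxp1 and Eya1 had a pair of probe sets each, and the remaining 5 genes had 1 each. The arrays held 1 striatum each, 3 of Hdh4/Q80 mice and 3 of their wild-type littermates, and all 6 animals were 12-month-old C57BL/6 females. The mutants carry a lengthened CAG tract within murine huntingtin, and the labels call the model transgenic. Whether 1 or both alleles were changed was not stated in the sources used here. The samples are named by the numbers in their titles, wild-type replicates 4, 5 and 6 and Hdh4/Q80 replicates 7, 8 and 9. The comparison asks whether the regulators that build and maintain spiny neurons differ in level in the mutant striatum.

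Spiny projection neurons make up most striatal neurons and are GABAergic cells of a direct pathway, which expresses substance P and dynorphin, and an indirect pathway, which expresses enkephalin. They arise from the lateral ganglionic eminence, where the homeodomain proteins DLX1 and DLX2 act in progenitors and in newly born neurons. The forkhead repressor FOXP1 and the TALE homeodomain protein MEIS2 then mark maturing and adult spiny neurons, whereas the LIM homeodomain protein ISL1 and the helix-loop-helix protein EBF1 act mainly in direct-pathway neurons. EYA1 is a phosphatase and coactivator that works with sine oculis homeodomain proteins. FOXP1 has been studied in Huntington's disease as a striatum-enriched transcription factor.

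The upstream sequences of Foxp1, Meis2 and Tac1 are shown because 1 Foxp1 probe set, Meis2 and the substance P precursor Tac1 varied together between mice, as described below. The relation of Foxp1 with Meis2 did not pass adjustment, and Tac1 was chosen after its values were seen. Pbx3, which varied alike, is not shown. A link between the motif matches and the shared variation was not tested. RefSeq windows of GRCm38.p6 were listed for 6 of the 7 factors, 9 windows in all, with 3 for Foxp1 and 2 for Ebf1. Each sequence covers 250 bases before an annotated start, on the gene's strand, with motif matches in capitals. Both strands were searched for 4 short motifs. The homeodomain core was TAATTA, and the motif that MEIS proteins bind was TGACAG. The forkhead core was TGTTTAC. The box near many transcription starts was TATAAA. None of the printed matches overlap. The Foxp1 window at chr6:99266516-99266765 (minus strand) holds TAATTA 240 to 235 bases before the start and, on the opposite strand, TGACAG 151 to 146 bases before it. The Meis2 window at chr2:116064620-116064869 (minus strand) holds TATAAA 152 to 147 bases before the start. The Tac1 window at chr6:7554811-7555060 (plus strand) holds TAATTA 100 to 95 bases before the start.
Foxp1: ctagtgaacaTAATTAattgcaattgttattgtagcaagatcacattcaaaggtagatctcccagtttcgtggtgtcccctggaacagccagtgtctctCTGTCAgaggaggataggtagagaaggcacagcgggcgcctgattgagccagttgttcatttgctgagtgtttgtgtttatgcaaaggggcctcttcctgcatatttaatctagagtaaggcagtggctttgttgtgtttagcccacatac
Meis2: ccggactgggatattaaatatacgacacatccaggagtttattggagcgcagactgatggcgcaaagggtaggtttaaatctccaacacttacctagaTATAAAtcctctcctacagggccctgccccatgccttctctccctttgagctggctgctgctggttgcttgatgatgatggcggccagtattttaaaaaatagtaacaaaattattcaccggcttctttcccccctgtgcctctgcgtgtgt
Tac1: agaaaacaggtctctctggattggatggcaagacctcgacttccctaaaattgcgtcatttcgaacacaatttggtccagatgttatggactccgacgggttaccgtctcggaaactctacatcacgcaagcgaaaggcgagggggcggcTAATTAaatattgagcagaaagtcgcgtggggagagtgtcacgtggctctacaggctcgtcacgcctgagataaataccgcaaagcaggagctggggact
Of all 32851 windows of this length, 4.84% hold TAATTA, 15.9% TGACAG, 3.17% TGTTTAC and 12.4% TATAAA. Of the 9 windows of the factors, 1 (Foxp1) holds TAATTA, the same one holds TGACAG, 1 (Meis2) holds TATAAA, and 0 hold TGTTTAC. A match describes letters in a window and not a bound site.

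None of the 7 regulators differed between Hdh4/Q80 and wild-type striatum by more than the mice varied. Of the 9 probe sets, 4 had a mean above and 5 a mean below wild type, and the largest difference was 0.08 on the log2 scale in either direction. In limma's moderated test 0 of 9 passed an adjusted p of 0.05 (Benjamini-Hochberg over 12422 probe sets; adjusted p = 0.866 to 0.994), where 0% of all probe sets passed. At an unadjusted p under 0.05 there were also 0 of 9 (smallest 0.301), against 5.10% of all probe sets. In 0 of 9 did the 3 mutants lie wholly to one side of the 3 wild types, against 11.7% of all probe sets. The median absolute difference was 0.04 for the 9 probe sets and 0.07 for all. The 95% intervals reached at most 1.26-fold higher (Foxp1) and 1.24-fold lower (Foxp1) in the mutants. Each interval therefore leaves out a 1.5-fold change in either direction on the array scale. RMA shrinks differences of dim probe sets, so this limit is weaker for Dlx2, Eya1 94705_at and Isl1. Their mean levels lay at the 8.66, 28.7 and 35.8 percentiles of all probe sets. Dlx1 and Ebf1 lay near the middle, at the 46.8 and 51.1 percentiles, and no detection calls were available. In bulk RNA, fewer cells of a type and less RNA per cell cannot be told apart.

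**Figure D1:**
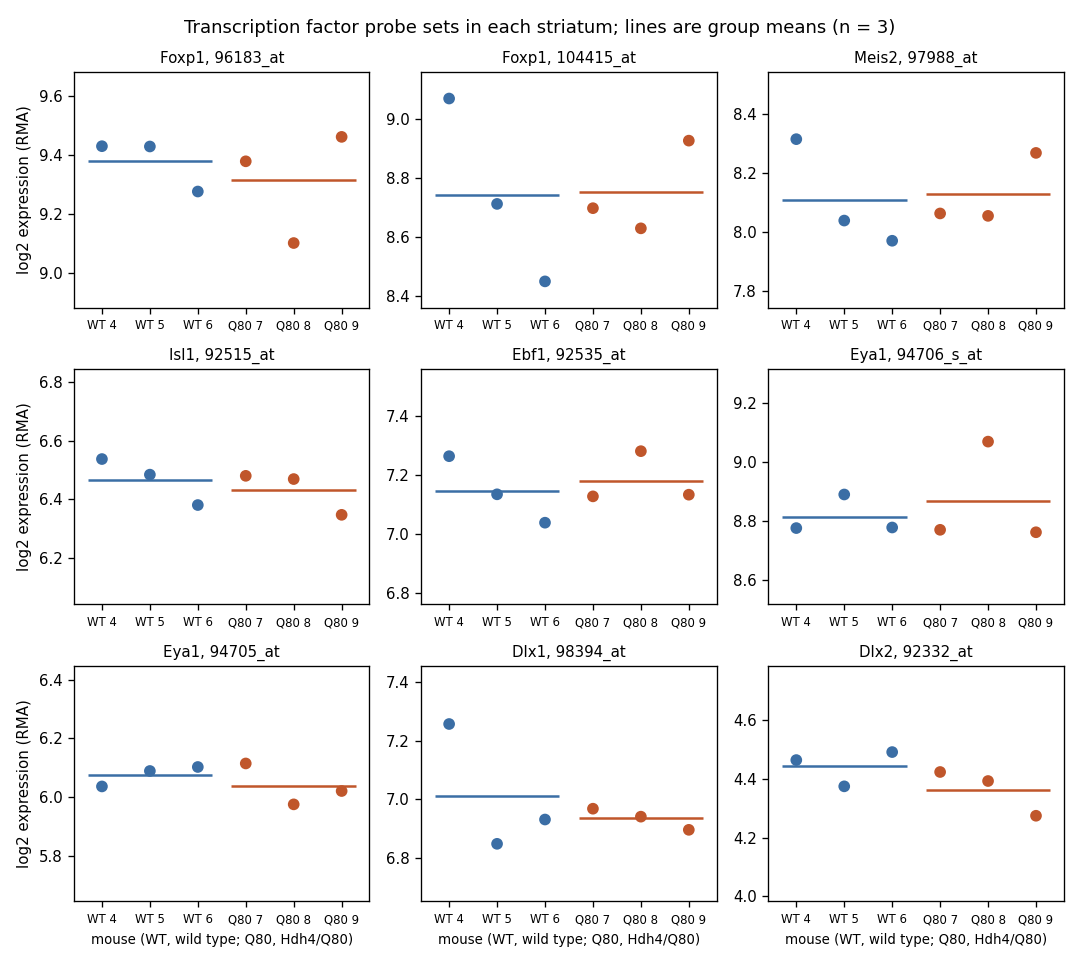
Log2 expression (vertical axis, the same span of values in each panel) of the 9 probe sets in each mouse (horizontal axis); points are single striata, blue for wild type and orange for Hdh4/Q80, and lines are group means of 3 mice. The groups overlap in every panel, and wild-type replicate 4 is the highest mouse in 4 of the 9.

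**Figure D2:**
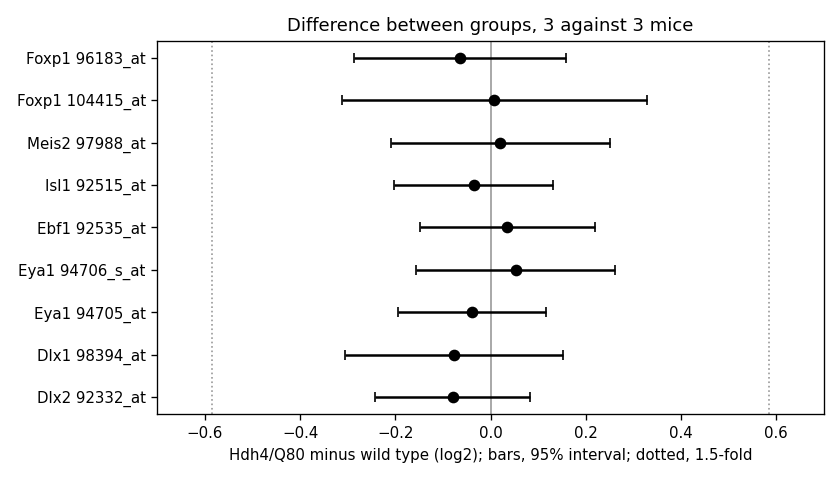
Difference of group means, Hdh4/Q80 minus wild type, in log2 units (horizontal axis) for each probe set (vertical axis); points are estimates from 3 against 3 mice, bars are limma's 95% intervals and dotted lines mark 1.5-fold. All 9 intervals cross 0 and stay inside the dotted lines.

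Dlx1 and Dlx2, the distal-less homeobox genes that form a pair on chromosome 2, were the factors with the lowest differences. Dlx1 read 7.26, 6.85 and 6.93 in wild-type replicates 4, 5 and 6 and 6.97, 6.94 and 6.90 in Hdh4/Q80 replicates 7, 8 and 9. Wild-type replicate 4 stood above the other 5 mice, which spanned 6.85 to 6.97. The group means were 7.01 ± 0.216 and 6.94 ± 0.0363 (log2 ± SD over 3 mice), and they differed by -0.08 ± 0.102 (SE; 95% interval -0.31 to 0.15; limma adjusted p = 0.906). Without wild-type replicate 4 the difference was 0.05. Dlx2 read 4.46, 4.37 and 4.49 in wild type and 4.42, 4.39 and 4.27 in the mutants. Hdh4/Q80 replicate 9 was lowest, and the other mutants lay among the wild types. The Dlx2 difference was -0.08 ± 0.0731 (interval -0.24 to 0.08; adjusted p = 0.866), and it ran from -0.11 to -0.04 with 1 mouse left out. This probe set was dim: its mean level lay at the 8.66 percentile of all probe sets, and RMA shrinks differences at such levels, so the interval is a weak limit. The annotation places an antisense RNA gene, Dlx1as, across Dlx1. Its own probe set, looked at after its values were known, read 6.82, 6.81 and 6.84 in wild type and 6.90, 6.72 and 6.76 in mutants, with overlapping groups (difference -0.03 ± 0.0719; adjusted p = 0.951; 0.01 without Hdh4/Q80 replicate 8).

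Foxp1, the forkhead factor of mature spiny neurons, was read by a pair of probe sets whose orders of mice were similar but differed in the highest and the lowest mouse. The brighter one, 96183_at, read 9.43, 9.43 and 9.28 in wild-type replicates 4, 5 and 6 and 9.38, 9.10 and 9.46 in Hdh4/Q80 replicates 7, 8 and 9. Hdh4/Q80 replicate 8 was the lowest mouse and replicate 9 the highest, so the mutants spanned the wild types on both sides. The means were 9.38 ± 0.0888 and 9.31 ± 0.189, a difference of -0.06 ± 0.0996 (interval -0.29 to 0.16; adjusted p = 0.92). Without Hdh4/Q80 replicate 8, the array with the lowest mean correlation with the others (0.992, against 0.995 to 0.997), this difference was 0.04. The other probe set, 104415_at, read 9.07, 8.71 and 8.45 in wild type and 8.70, 8.63 and 8.93 in mutants. Here wild-type replicates 4 and 6 were the highest and lowest of the 6 mice. Its difference was 0.01 ± 0.143 (interval -0.31 to 0.33; adjusted p = 0.994). That value was 0.17 without wild-type replicate 4, -0.14 without wild-type replicate 6, -0.01 without wild-type replicate 5 and -0.08 without Hdh4/Q80 replicate 9. The spread of 104415_at between mice of a group was wide, with a pooled SD of 0.247 that lay at the 97.9 percentile of all probe sets.

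Meis2, a TALE homeodomain factor that binds DNA with PBX partners, read 8.31, 8.04 and 7.97 in wild type and 8.06, 8.05 and 8.27 in mutants. Wild-type replicate 4 and Hdh4/Q80 replicate 9 were the 2 highest mice, and the other 4 lay between 7.97 and 8.06. The means were 8.11 ± 0.183 and 8.13 ± 0.121, a difference of 0.02 ± 0.103 (interval -0.21 to 0.25; adjusted p = 0.976). It was 0.12 without wild-type replicate 4, and its sign turned without wild-type replicate 5 (-0.01), wild-type replicate 6 (-0.05) or Hdh4/Q80 replicate 9 (-0.05).

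Isl1 and Ebf1, the factors linked to direct-pathway neurons, had narrower spreads. Isl1, which cholinergic interneurons also express, read 6.54, 6.48 and 6.38 in wild type and 6.48, 6.47 and 6.35 in mutants. Both groups covered nearly the same range, with lowest mice at 6.38 and 6.35. The Isl1 difference was -0.04 ± 0.0748 (interval -0.20 to 0.13; adjusted p = 0.948), and it became 0.01 without Hdh4/Q80 replicate 9 and 0.03 with array weights. Ebf1 read 7.26, 7.13 and 7.04 in wild type and 7.13, 7.28 and 7.13 in mutants. Hdh4/Q80 replicate 8 and wild-type replicate 4 were the high mice, and the other 4 lay between 7.04 and 7.13. The Ebf1 difference was 0.04 ± 0.0823 (interval -0.15 to 0.22; adjusted p = 0.948), and it became -0.02 without wild-type replicate 6 or without Hdh4/Q80 replicate 8.

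Eya1 was read by a bright probe set that can bind related transcripts (94706_s_at) and a dimmer specific one (94705_at), and these had opposite signs. The bright one read 8.78, 8.89 and 8.78 in wild type and 8.77, 9.07 and 8.76 in mutants. Hdh4/Q80 replicate 8 was the one high mouse, and the difference of 0.05 ± 0.0937 (interval -0.16 to 0.26; adjusted p = 0.935) became -0.05 without it. The specific one read 6.04, 6.09 and 6.10 in wild type and 6.11, 5.98 and 6.02 in mutants, and here Hdh4/Q80 replicate 8 was the lowest mouse. Its difference was -0.04 ± 0.0696 (interval -0.19 to 0.12; adjusted p = 0.935), with a range of -0.08 to -0.01 when 1 mouse was left out. The array that read highest on one Eya1 probe set thus read lowest on the other.

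Between mice, irrespective of genotype, Meis2 and the Foxp1 probe set 104415_at moved together. Their log2 values correlated over the 6 mice with Pearson's r = 0.96 (exact permutation p = 0.00556, two-sided) and Spearman's rho = 0.83 (exact permutation p = 0.0583). Among the 36 pairs of the 9 probe sets this was the strongest relation and the only one with an unadjusted p under 0.05 for Pearson's r. It did not pass adjustment over the 36 pairs (adjusted p = 0.2 for r and 0.903 for rho). The r was 0.95 without the 2 mice farthest from the median Foxp1 value and 0.93 without wild-type replicate 4. The remaining 35 pairs varied in sign, and their median r was 0.13. The pair of Foxp1 probe sets correlated at r = 0.62 (exact permutation p = 0.204, adjusted p = 0.757; rho = 0.89, p = 0.0333, adjusted p = 0.903; 0.56 without the 2 farthest mice). The pair for Eya1 correlated at r = -0.60 (exact permutation p = 0.214, adjusted p = 0.757; rho = -0.26, p = 0.658, adjusted p = 0.903; 0.47 without the 2 farthest mice), and Dlx1 with Dlx2 at r = 0.49 (exact permutation p = 0.3, adjusted p = 0.757; rho = 0.60, p = 0.242, adjusted p = 0.903; 0.65 without the 2 farthest mice). No labelled batch was available, and 3 mice a group were too few for a correlation within a group.

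Pbx3, which encodes a DNA-binding partner of MEIS proteins, and Tac1 were chosen after their values were seen and have no test. On the brightest probe set of each, they had the same highest and lowest mouse as Meis2 and Foxp1 104415_at. The dimmer Pbx3 probe sets shared only the highest mouse. Pbx3 read 9.35, 8.72 and 8.48 in wild type and 8.69, 8.73 and 8.95 in mutants, from the highest in wild-type replicate 4 to the lowest in wild-type replicate 6. Tac1 read 10.20, 9.71 and 9.52 in wild type and 9.74, 9.80 and 9.93 in mutants, with the same extremes. Over the 6 mice Pbx3 had r = 0.96 with Foxp1 104415_at and 0.94 with Meis2, and Tac1 had 0.96 and 0.94. With the brighter Foxp1 probe set, 96183_at, r was 0.45 for Pbx3 and 0.38 for Tac1. Such values were not rare: among 4813 genes, 51 had an r above 0.9 with Foxp1 104415_at, where Pbx3 and Tac1 ranked 9 and 13, and 87 had one with Meis2, where they ranked 36 and 35. The group differences were -0.06 ± 0.184 for Pbx3 (0.19 without wild-type replicate 4) and 0.02 ± 0.149 for Tac1 (0.21 without wild-type replicate 4 and -0.13 without wild-type replicate 6), with limma adjusted p = 0.959 and 0.989. The summed log2 level of the 8 measured spiny neuron markers, of which Tac1 is 1, was 80.05, 78.85 and 78.01 in wild-type replicates 4, 5 and 6 and 78.61, 77.97 and 79.39 in Hdh4/Q80 replicates 7, 8 and 9. Without Tac1 the sum of the other 7 was 69.85, 69.14 and 68.49 in wild type and 68.87, 68.17 and 69.45 in mutants. Both sums were highest in wild-type replicate 4 and lowest in Hdh4/Q80 replicate 8. That mutant was not the lowest mouse for Meis2, Foxp1 104415_at, Tac1 or the brightest Pbx3 probe set. It was the lowest mouse for both dimmer Pbx3 probe sets, at 8.54 and 7.41. The sum of 8 cortical projection neuron markers, genes of the tissue above the striatum, was 56.36, 55.34 and 58.58 in wild type and 56.97, 55.11 and 56.79 in mutants. It was highest in wild-type replicate 6, the lowest mouse for Meis2, Foxp1 104415_at, Tac1 and the brightest Pbx3 probe set. The other mice did not follow an inverse order. The part of these cells in the shared variation was not tested.

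**Figure D3:**
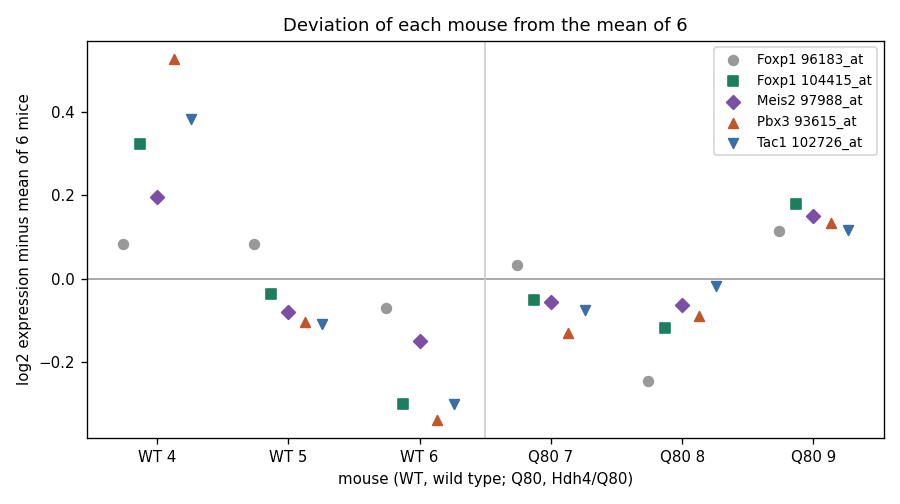
Log2 expression of each mouse minus the mean of the 6 mice (vertical axis) for both Foxp1 probe sets, Meis2, Pbx3 and Tac1 (symbols), by mouse (horizontal axis; WT, wild type; Q80, Hdh4/Q80). Wild-type replicate 4 is 0.20 to 0.53 above the mean for all but Foxp1 96183_at (0.08), and wild-type replicate 6 is below the mean for all 5.

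For each probe set, genes with 1 symbol and a mean above the array median were ranked by Pearson's r with it over the 6 mice, as a description with no test. Foxp1 104415_at was most like Reln, the secreted glycoprotein reelin (r = 0.996 on its brighter probe set), and Kcnk2, a potassium leak channel (0.991). The dimmer Reln probe set, looked at after its values were known, did not share this order. It was highest, at 8.10, in wild-type replicate 6, the lowest mouse for Foxp1 104415_at. Its groups did not overlap (difference -0.18, limma adjusted p = 0.857), whereas the brighter Reln probe set differed by 0.01. Foxp1 96183_at was most like Mepce (0.992) and Adra2c, an adrenergic receptor (0.991). For Meis2 the nearest were Unc119b (0.994) and Rbck1 (0.989), and for Isl1 Vax1, a ventral forebrain homeobox gene (0.973), and Dusp12 (0.971). Ebf1 was nearest to Foxj1, a ciliated-cell factor (0.986), and Kdm3a (0.981). Eya1 94706_s_at was nearest to Dusp2 (0.998) and Gm4736 (0.995), Eya1 94705_at to Arhgef2 (0.994) and Hmces (0.991), Dlx1 to Lpcat3 (0.974) and Tmem131 (0.969), and Dlx2 to Mast2 (0.969) and Rrm1 (0.951). With 6 mice high values are common: 11 of 4814 genes exceeded 0.9 for Isl1 and 198 of 4813 for Foxp1 96183_at. All genes of a mouse share its array and dissection.

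The relatives and cofactors of these factors also gave no difference past the adjusted threshold, but some differences were larger than those of the 7 factors. Of 38 listed family members and cofactors 25 were measured, 11 above and 14 below 0, with a median of -0.02 against -0.01 over all 8251 genes. In limma's test 0 of 25 passed an adjusted p of 0.05 (0% of all genes) and 1, Ebf3, had an unadjusted p under 0.05 (4.30% of all genes). Ebf3, a paralogue of Ebf1, read 6.67, 6.65 and 6.69 in wild type and 6.84, 7.04 and 6.76 in mutants. All 3 mutants lay above all 3 wild types (difference 0.21 ± 0.0823, interval 0.03 to 0.39, adjusted p = 0.857), and its dimmer probe set differed by 0.03. With 1 mouse left out the Ebf3 value ran from 0.13 to 0.27, the lower end without Hdh4/Q80 replicate 8. Ebf2, chosen after its values were seen, read 5.96, 5.98 and 5.94 against 5.96, 6.38 and 6.09, with only Hdh4/Q80 replicates 8 and 9 above the wild types. Its difference of 0.18 ± 0.101 became 0.07 without Hdh4/Q80 replicate 8. Six2, a sine oculis homeobox gene whose family partners EYA proteins, read 8.61, 8.71 and 8.68 against 8.79, 8.85 and 8.80, with no overlap (0.15 ± 0.0667, adjusted p = 0.857). On the lower side were Ctbp2, a corepressor that binds forkhead and other repressors (-0.15 ± 0.0732, adjusted p = 0.857; -0.0035 on its other probe set), and Dlx6 (-0.11 ± 0.09, adjusted p = 0.86; 0.06 with array weights). The Dlx6 value was -0.20 without Hdh4/Q80 replicate 7 and -0.05 without Hdh4/Q80 replicate 8. The groups did not overlap for 7 of the 25 (Ebf3, Six2, Six4, Six5 and Eya3 higher, Ctbp2 and Pbx2 lower), where 11.1% of all genes had no overlap. Foxp2 and Foxp4 were among the 13 listed genes not measured.

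Other regulators of the striatum and ventral forebrain showed 7 of 18 measured genes above and 11 below 0 (median -0.01), or 61.1% below 0 against 53.3% of all genes. In limma's test 0 of 18 passed an adjusted p of 0.05 (0% of all genes) and 0 an unadjusted p of 0.05 (4.30% of all genes), and the groups did not overlap for 1 of 18, Zfhx3 (11.1% of all genes). Rxrg, a retinoid receptor enriched in striatum, had the lowest difference of this list, at -0.22 ± 0.12 (adjusted p = 0.857); it read 8.93, 8.74 and 8.54 in wild type and 8.55, 8.30 and 8.70 in mutants, so the groups overlapped. It was -0.11 without Hdh4/Q80 replicate 8 and -0.13 without wild-type replicate 4. Zfhx3, a zinc finger homeodomain factor of spiny neurons, read 8.34, 8.42 and 8.40 against 8.32, 8.18 and 8.22, with all mutants below all wild types (-0.15 ± 0.0698, adjusted p = 0.857). On the higher side were the ventral progenitor gene Gsx1 (0.16 ± 0.0941, adjusted p = 0.857), which became 0.06 without Hdh4/Q80 replicate 8, and Ikzf1 (0.10 ± 0.0745, adjusted p = 0.857), which became 0.05 without wild-type replicate 6. Bcl11b, Gsx2, Sp8 and Sp9, also on the list, were not measured.

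Genes known to depend on the 7 factors gave 8 of 11 measured members above and 3 below 0 (median 0.02), or 27.3% below 0 against 53.3% of all genes. In limma's test 0 of 11 passed the adjusted threshold (0% of all genes) and 1, Gad1, an unadjusted p of 0.05 (4.30% of all genes). The groups did not overlap for 2 of 11, Gad1 and the opioid receptor gene Oprm1, against 11.1% of all genes. Gad1, the GABA-synthesising enzyme whose expression DLX proteins promote, read 10.52, 10.51 and 10.33 in wild type and 10.64, 10.80 and 10.71 in mutants. All 3 mutants lay above all 3 wild types, by 0.26 ± 0.0806 on average (adjusted p = 0.857). A link between the Gad1 and Dlx values was not tested. Pdyn, the dynorphin precursor, differed by 0.08 ± 0.067 (adjusted p = 0.862), with the opposite sign (-0.07) on its dimmer probe set. The D2 receptor gene Drd2 differed by -0.06 ± 0.107 (adjusted p = 0.935; 0.02 without wild-type replicate 4 and 0.03 without Hdh4/Q80 replicate 8). Slc18a3, the vesicular acetylcholine transporter of the cholinergic neurons that also use Isl1, differed by -0.10 ± 0.0858 (adjusted p = 0.862; -0.04 without Hdh4/Q80 replicate 8). Lhx8, a LIM homeodomain gene of the same cells, differed by 0.07 ± 0.0881 (adjusted p = 0.9; -0.02 without wild-type replicate 6). Chat, Drd1, Adora2a and Ppp1r1b were not measured.

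**Figure D4:**
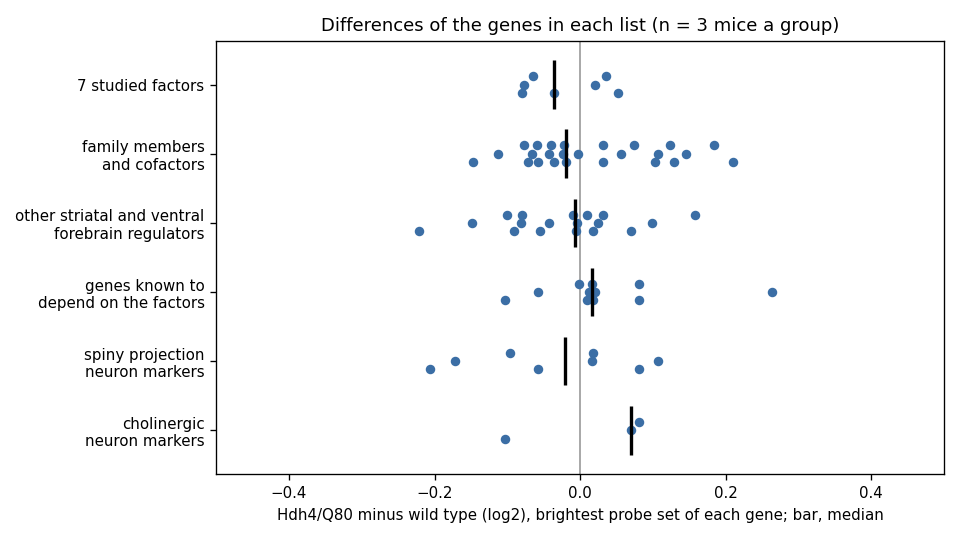
Difference of group means, Hdh4/Q80 minus wild type, in log2 units (horizontal axis), for the brightest probe set of each measured gene in 6 lists (vertical axis); points are genes, spread vertically for legibility, and bars are list medians. The 7 factors lie between -0.08 and 0.05, and the medians of the other lists lie between -0.02 and 0.07.

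Markers of neighbouring tissue and glia differed between mice. The medians of the arrays ran from 7.11 to 7.13, and their pairwise r over probe sets from 0.990 to 0.998, a description since probe sets are no replicates. Of 17 spiny neuron markers 8 were measured, with wild-type means from 5.58 (Rgs9) to 13.02 (Penk), 2 genes named after their values were seen as the ends of this range. Without detection calls or another tissue on the same arrays, these levels do not test the tissue label. The summed log2 level of 4 measured choroid plexus and ependyma markers was 29.17 to 32.32 in wild type and 29.29 to 34.89 in mutants, and that of 8 cortical markers 55.34 to 58.58 and 55.11 to 56.97. For 9 interneuron markers the sums were 75.18 to 77.59 and 74.24 to 76.53, for 7 neuroblast markers 52.36 to 52.45 and 52.24 to 53.05, and for 3 cholinergic markers 19.67 to 20.15 and 19.85 to 20.19. The sums of 8 vessel markers were 56.04 to 56.78 and 56.19 to 56.44, and of 6 astrocyte markers 55.26 to 55.82 and 53.87 to 55.57. The sums of 7 oligodendrocyte markers (67.31 to 67.86 against 66.68 to 67.01) and 7 microglia markers (60.50 to 61.06 against 58.38 to 60.00) were lower in all mutants than in all wild types. By gene, groups did not overlap for 2 of 7 and 4 of 7, against 11.1% of all genes. Cnp (0.12) and Mbp (0.01) had differences above 0, and the other 5 oligodendrocyte and all 7 microglia genes below 0. A dimmer probe set of the microglia gene C1qb, looked at after its values were known, differed by 0.24. The sums have no test. No marker is at 0 on an RMA scale, and the part of these cells in the values above was not tested.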

How the data were processed

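Total RNA from 6 striata was labelled with biotin and measured on Affymetrix arrays, 1 mouse each, per the labels' protocols. The authors deposited a log2 level for every probe set, computed by RMA (affy), per the submitters' processing notes, which name no versions. RMA equalises intensity distributions between arrays and shrinks differences of dim and very bright probe sets. The number of arrays limits precision, and levels of different probe sets cannot be set against each other.

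Of 12488 probe sets, 66 controls were left out, and 10833, 396 and 1193 of the rest had 1, several or no gene symbols in the platform annotation. Hdh4/Q80 was compared with wild type in limma 3.58.1 (R 4.3.3, lmFit and eBayes, 4 residual and 5.81 prior degrees of freedom), adjusted over 12422 probe sets. The code was run on simulated data with changes far larger than those of the factors. That run does not show what small differences the test could find. The brightest probe set stands for a gene in the lists. Marker sums add the log2 values of these probe sets. Correlations used exact permutation over 6 mice. Named list genes were the up to 2 of smallest p in each direction. Genes listed for groups that did not overlap, and genes nearest by Pearson's r, were also named from their values. Other measured genes are marked as chosen after their values were seen, as was Dlx1as. The factors and lists were chosen with earlier results of these data known. The lists have no test. The alternatives were median centring, renewed quantile normalization, cyclic loess, leaving out the dimmest 40% of probe sets, moderation with a trend and robust to outliers, weighting of arrays, averaging the probe sets of a gene, and omitting each mouse in turn.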

Additional observations from a re-analysis of the deposited data

How the results depend on the processing

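Over 105 values of the 9 probe sets under the alternatives, 0 passed the adjusted threshold (smallest adjusted p = 0.569 in limma); 89 kept their sign and 16 turned it, and Dlx2 alone never turned. The count over all probe sets stayed at 0 in each alternative. At an unadjusted p under 0.05 in limma it was 634 of 12422. Without the dimmest 40% it was 338 of 7454, a smaller set of probe sets. It was 1812 of 12422 with array weights (weight 6.19 for Hdh4/Q80 replicate 7) and ran from 251 to 1153 with 1 mouse left out. With array weights the sign turned for Foxp1 96183_at (0.0191), Isl1 (0.0264), Eya1 94706_s_at (-0.0320), Eya1 94705_at (0.0201), Dlx6 (0.0615) and Dlx1as (0.0568). The weights of Hdh4/Q80 replicates 7, 8 and 9 were 6.19, 0.228 and 0.405, so the weighted mutant mean rested mainly on replicate 7. Those of wild-type replicates 4, 5 and 6 were 0.816, 1.16 and 1.85. The cause of the uneven weights was not tested. With 1 mouse left out the differences ran from -0.1387 to 0.0419 (Foxp1 96183_at), -0.1401 to 0.1710 (Foxp1 104415_at), -0.0493 to 0.1244 (Meis2), -0.0784 to 0.0073 (Isl1), -0.0187 to 0.0945 (Ebf1), -0.0488 to 0.1054 (Eya1 94706_s_at), -0.1587 to 0.0451 (Dlx1), -0.151 to 0.0283 (Drd2), -0.2414 to 0.1919 (Pbx3), -0.1297 to 0.2125 (Tac1), -0.1462 to 0.2035 (Reln), -0.0221 to 0.139 (Lhx8) and -0.0812 to 0.0065 (Dlx1as). No paired analysis was possible because the groups share no replicate numbers. Dim probe sets, Dlx2 above all, limit what differences could be seen.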
